A study of Mus musculus with 12 samples.

Results

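Cytochromes P450 of families 1 to 4 were followed in the livers of 12 male mice. The set holds every probe set whose single gene symbol on the array platform is a Cyp gene of family 1, 2, 3 or 4, written as the family digit, 1 subfamily letter and a gene number. It comprised 57 of the 22690 probe sets of the array and 48 of the 12394 gene symbols, spread over 16 subfamilies. The rule uses gene names only, though it was set with earlier results of these data known. A single probe set reads 41 of the genes, and 7 genes are read by more than 1. Probe sets that name several genes, and names with a trailing letter such as Cyp4a12a, lie outside the rule.

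Each liver was measured on 1 Affymetrix MOE430A array. The 4 groups of 3 mice are Het_3M and Het_12M, heterozygous for the Mdr2 knockout at 3 and 12 months, and KO_3M and KO_12M, homozygous for it at the same ages. Mdr2, now named Abcb4, moves phospholipid into bile, and mice without it develop inflamed bile ducts and, when older, liver tumours. The controls thus carry 1 knockout allele. The labels give no strain and name the tissue only as liver. Each value is a MAS 5.0 signal, a brightness on a linear scale. Knockout effects are log2 fold changes of the signal plus 16, with limma's standard error after ± (n = 3 mice a group), and a probe set was called at an adjusted p under 0.05 over all 12976 probe sets tested.

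P450 enzymes of these families are haem proteins of the endoplasmic reticulum that add oxygen to drugs, steroids, fatty acids and bile acids, taking electrons from P450 reductase and cytochrome b5. In the liver they are made mostly by hepatocytes, many of them by the hepatocytes around the central vein. Nuclear receptors set their transcription: CAR and PXR act on Cyp2b, Cyp2c and Cyp3a genes, the AH receptor on Cyp1 genes, and PPARalpha on Cyp4a genes. Several mouse members differ between males and females under growth hormone.

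Some features of the arrays bear on every comparison. The 3 scan sessions each mixed ages or genotypes, but in none could both genotypes be compared at 1 age, so a fit with the session as a block is given below. KO_12M 3 stood apart, with a 10th percentile of the signals of 9.4 against 4.1 to 6.5 on the other arrays, and its brightest P450 signals were low. The GAPDH control probes, read at both ends of the transcript, had a 3' to 5' ratio of 2.09 to 3.64 in Het_3M and 1.03 to 1.88 on the other 9 arrays. The source label of Het_3M 1 and of KO_3M 1 gives 12 months, against 3 months in their titles. Hepatocyte markers were bright in every group, and none of their 14 probe sets was called at either age. The summed hepatocyte signal, with 1 probe set a gene, was 61320.3 to 67158 in Het_3M, 59137 to 68559 in KO_3M, 57559 to 64516 in Het_12M and 37872 to 59186 in KO_12M.

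The Cyp2c gene cluster of chromosome 19 held members that were lower and members that were higher in knockout livers. RefSeq promoters of GRCm38.p6 are shown for the 6 called Cyp2c genes that have an entry. They are printed because closely related upstream sequences belong to genes that were lower and to neighbours that were higher. Each line gives the 150 bases before the gene's start in RefSeq's gene table, 5′ to 3′ on the gene's strand. For Cyp2c55, Cyp2c29 and Cyp2c38 the promoter entry places its start site 79, 41 and 28 bases further into the gene, and those bases are not printed. Capitals mark CAAAGT, the first letters of an HNF4 site, on either strand.
Cyp2c29 (chr19:39286894-39287043, plus strand): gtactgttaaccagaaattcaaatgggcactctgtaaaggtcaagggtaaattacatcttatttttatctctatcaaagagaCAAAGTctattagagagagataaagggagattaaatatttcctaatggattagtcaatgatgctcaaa
Cyp2c37 (chr19:39992274-39992423, plus strand): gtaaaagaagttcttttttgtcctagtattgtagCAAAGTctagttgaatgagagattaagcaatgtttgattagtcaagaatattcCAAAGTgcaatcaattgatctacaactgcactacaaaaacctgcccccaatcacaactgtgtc
Cyp2c50 (chr19:40089529-40089678, plus strand): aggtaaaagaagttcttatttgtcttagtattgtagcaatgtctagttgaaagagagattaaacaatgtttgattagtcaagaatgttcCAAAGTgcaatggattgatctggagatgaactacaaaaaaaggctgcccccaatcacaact
Cyp2c55 (chr19:39006790-39006939, plus strand): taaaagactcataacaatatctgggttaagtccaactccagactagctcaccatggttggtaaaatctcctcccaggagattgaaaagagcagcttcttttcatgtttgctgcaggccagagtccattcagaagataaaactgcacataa
Cyp2c39 (chr19:39347196-39347345, plus strand): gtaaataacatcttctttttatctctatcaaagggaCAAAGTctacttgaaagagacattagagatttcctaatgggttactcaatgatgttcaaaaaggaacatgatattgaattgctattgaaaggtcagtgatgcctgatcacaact
Cyp2c38 (chr19:39463104-39463253, minus strand): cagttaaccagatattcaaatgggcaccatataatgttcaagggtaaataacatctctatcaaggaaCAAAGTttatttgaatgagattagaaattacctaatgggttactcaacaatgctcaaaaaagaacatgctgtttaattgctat

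Over the full 300 bases of the entries, which run past the printed ends, Cyp2c37 and Cyp2c50 shared 264 bases (88%) and Cyp2c38 and Cyp2c39 shared 246 (82%). Cyp2c29 shared 79% with Cyp2c39 and 76% with Cyp2c38, and no other pair of Cyp2c entries passed 65%. Of the 48 member genes 39 had an entry, and Cyp2c54 was among the 9 without one. A single entry was used for each member gene, and matches were counted anywhere in its 300 bases. TATAAA, the letters of the TATA box, or its reverse complement TTTATA was found in 16 of the 39 member promoters (41%), against 13.6% of all 32544 distinct RefSeq promoters. The match lay 234, 162, 128, 126 and 122 bases before the entry's start for Cyp3a11, Cyp2c65, Cyp2j5, Cyp3a16 and Cyp3a44, and 19 to 39 bases before it for the others. CAAAGT or ACTTTG was found in 17 member promoters (43.6%), against 14.4% of all promoters. The longer CAAAGTCC, which contains it, was found in 6 (15.4%), against 1.43%. The 6 were Cyp2c68, Cyp2c70 and Cyp3a11, not called in a knockout comparison, and the untested Cyp2c65, Cyp3a16 and Cyp4f18. Other searches on both strands found TTGCNNAA (C/EBP) in 8 members (20.5%, against 10.8% of all), GTTAAT (HNF1) in 2 (5.13%, against 7.13%), TTCNNNGAA (STAT5) in 2 (5.13%, against 8.33%) and GCGTG (AH receptor) in 9 (23.1%, against 32.6%). The matches are a description of letters, and Cyp2c promoters are related by descent, so their matches are not separate observations.

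At 3 months every called member was lower in knockout than in heterozygous livers. Outside the rule, the set shared by Cyp2a5 and Cyp2a4 was called higher, as was that of Cyp4f37 and Cyp4f16. The set shared by Cyp4a31 and Cyp4a10 was called lower. Of the 57 probe sets, 45 (39 genes) were bright enough to be tested. Of these, 16 probe sets of 14 genes were lower in KO_3M, none was higher and 29 were not called. That is 35.6% of the tested members lower, against 11.6% of all tested probe sets lower and 9.55% higher. The median log2 fold change was -0.30 over the tested members and -0.06 over all tested probe sets. In all 16 the 3 knockout arrays lay below the 3 heterozygous arrays, as in 97.2% of all probe sets called lower and 23.2% of all tested. RNA from whole liver cannot tell fewer hepatocytes from less RNA per hepatocyte.

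At 12 months 11 probe sets of 10 genes were lower, 4 probe sets of 4 genes were higher and 30 were not called. These are 24.4% and 8.89% of the tested members, against 3.6% of all tested probe sets lower and 5.86% higher. The median was -0.36 over the members and -0.0034 over all tested probe sets. The 14 hepatocyte marker probe sets, none of them called, had a median of -0.30 in the same comparison. Lower at both ages were Cyp1a2, Cyp2c29, Cyp2c50, Cyp2c54, Cyp2d13, Cyp2e1 and Cyp3a25, which make up 43.8% of the probe sets lower at 3 months and 63.6% of those lower at 12 months. The remaining 9 probe sets lower at 3 months belong to Cyp2b10, Cyp2c37, Cyp2d26, Cyp2j5, Cyp3a44, Cyp4a14 and Cyp4b1. The other 4 at 12 months belong to Cyp2d9, Cyp2d10, Cyp2d22 and a second probe set of Cyp2d13. Of the 11 lower probe sets, 10 had no overlap between the groups, as had 98.7% of all probe sets called lower and 12.9% of all tested, and the exception was Cyp3a25.

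**Figure D1:**
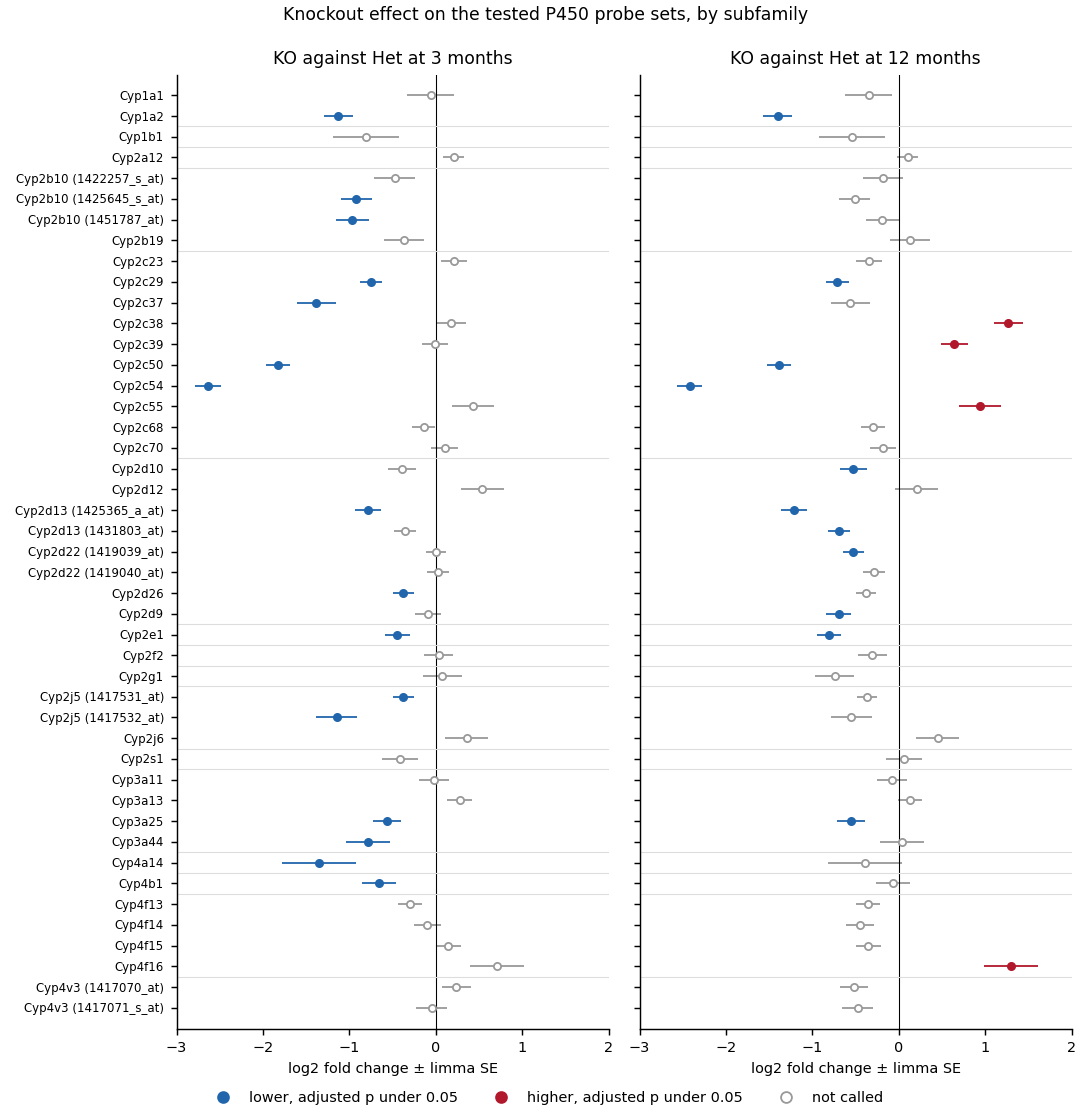
Knockout effect on each of the 45 tested P450 probe sets, grouped by subfamily, as log2 fold change (points) with limma standard error (bars), at 3 months on the left and 12 months on the right. Filled blue points are lower and filled red points higher at an adjusted p under 0.05; all 16 called at 3 months are lower, and 4 of the 15 called at 12 months are higher.

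The fit with the scan session as a block kept 2 of the 16 calls at 3 months and 2 of the 15 at 12 months, those of Cyp2c54 and Cyp2c50. Over all tested probe sets that fit called 3.2% at 3 months and 0.701% at 12 months. In it KO_3M, scanned only in session 3, is linked to the heterozygous arrays only through KO_12M 3. Het_12M, scanned only in session 1, is linked to the knockout arrays only through Het_3M 1. Each block estimate thus hangs on 1 array: KO_12M 3 at 3 months and Het_3M 1 at 12 months. Leaving out KO_12M 3 kept all 16 calls at 3 months and 11 of the 15 at 12 months, with Cyp2c39, Cyp2c55, Cyp2d10 and Cyp3a25 losing theirs. Without Het_3M 1 and KO_3M 1, the arrays of the conflicting age label, 8 of the 16 calls at 3 months stayed, and with the GAPDH ratio as a covariate 6 stayed. Leaving out Het_3M 3 or KO_3M 1 left 10 called at 3 months. Whichever single array was left out, 9 of the 16 calls at 3 months and 10 of the 15 at 12 months held, and the arrays that ended the others are named with each gene. Session 2 held KO_12M 1 and KO_12M 2 with Het_3M 2 and Het_3M 3, so genotype and age differ together there. Within it the mean log2 signal differed by -2.27 for Cyp2c54, -1.66 for Cyp1a2, -1.38 for Cyp2c50, -0.86 for Cyp2e1, -0.66 for Cyp2c29 and 0.07 for Cyp2c38. The parts of session, RNA quality and label in the other calls were not tested further.

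**Figure D2:**
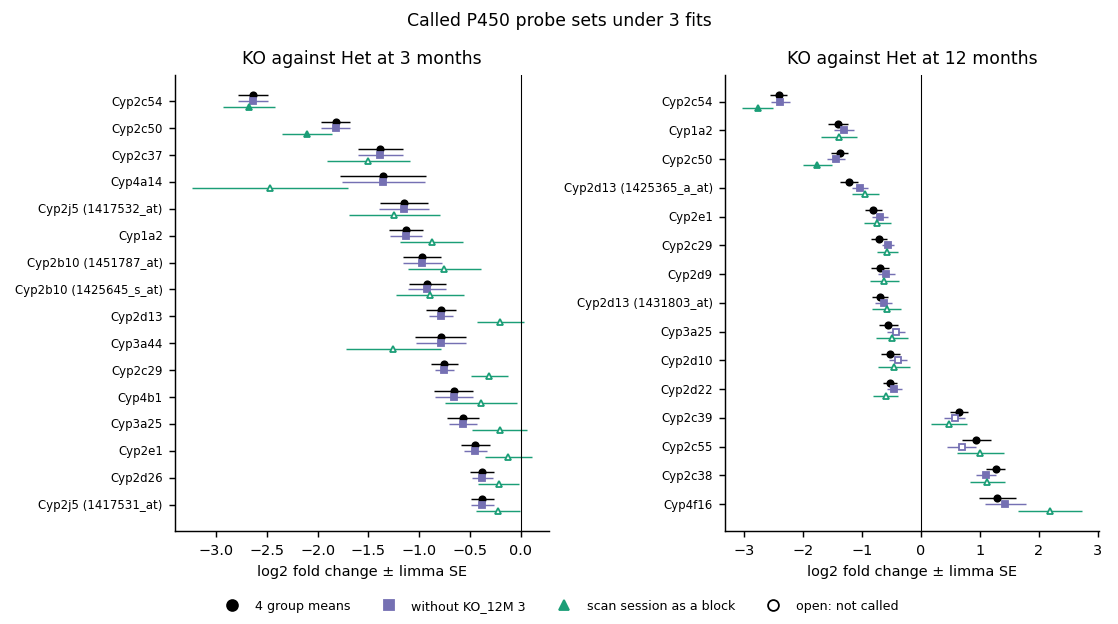
Log2 fold change of the called P450 probe sets with limma standard error, at 3 months (left) and 12 months (right), under 3 fits: the 4 group means (black circles), without KO_12M 3 (purple squares) and with the scan session as a block (green triangles). Open symbols are not called; Cyp2c54 and Cyp2c50 are filled under all 3 fits at both ages.

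The Cyp2c subfamily held falls at both ages and 3 of the 4 rises at 12 months. Its enzymes oxidise arachidonic acid, retinoic acid and many drugs. Of 11 probe sets, 1 for each of 11 genes, 10 were tested, 4 were lower at 3 months, and 3 were lower and 3 higher at 12 months. Over all tested probe sets, 11.6% were lower at 3 months, and 3.6% lower and 5.86% higher at 12 months. Cyp2c54, whose transcript CAR activators induce, read 1795, 2292 and 2409 in Het_3M and 298, 321 and 382 in KO_3M. In the older mice it read 2457, 2236 and 3017 in Het_12M and 488, 459 and 445 in KO_12M. No knockout liver came near a heterozygous one, and the knockout mean was 15.4% of the heterozygous mean at 3 months and 18.1% at 12 months. The log2 fold change was -2.64 ± 0.15, adjusted p = 1.99e-08, at 3 months and -2.42 ± 0.15, adjusted p = 3.70e-08, at 12 months. With the session as a block it was -2.68 (adjusted p = 0.000255) and -2.78 (adjusted p = 0.000221). Both block estimates hang on the linking arrays given above.

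Cyp2c50, its neighbour, read 1077, 1319 and 1369.5 in Het_3M and 291, 380.1 and 358 in KO_3M. It read 1525, 1411 and 1278 in Het_12M and 549.6, 465 and 573 in KO_12M at 12 months. All 6 knockout livers lay below all 6 heterozygous ones, and KO_3M lay below KO_12M. The log2 fold change was -1.82 ± 0.14, adjusted p = 4.86e-07, and -1.38 ± 0.14, adjusted p = 1.14e-05, with -2.11 (adjusted p = 0.00106) and -1.76 (adjusted p = 0.00448) under the session block.

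Cyp2c37 lies on the other side of Cyp2c54. Its probe set read 80.8, 92.9 and 127 in Het_3M and 20, 24.8 and 41.6 in KO_3M, and 75.3, 82.9 and 99.2 in Het_12M and 53.2, 52.1 and 52.4 in KO_12M. The groups did not overlap at either age, but only the younger difference was called (-1.38 ± 0.22, adjusted p = 0.000542), against -0.56 ± 0.22, adjusted p = 0.137, at 12 months. Cyp2c29, a major CAR-inducible P450 of mouse liver, was lower at both ages. Its signals were 6942, 7132 and 6827 in Het_3M and 4151, 3837 and 4433 in KO_3M. Those of the older mice were 6288, 6491 and 6759 in Het_12M and 4513, 4294 and 3232 in KO_12M. Each knockout liver was below each heterozygous one, with a log2 fold change of -0.75 ± 0.13, adjusted p = 0.00102, and -0.71 ± 0.13, adjusted p = 0.00235. Signals this high differ little between heterozygous arrays, and whether they lie in the linear range of the scanner was not tested.

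The rises of the subfamily were called in the 12-month comparison and lie toward the Cyp2c55 end of the cluster. Cyp2c38, an arachidonic acid epoxygenase, read 425, 448 and 393 in Het_3M and 405, 579 and 469 in KO_3M. At 12 months it read 202, 167 and 224 in Het_12M and 418, 467 and 620.3 in KO_12M. The odd group was Het_12M, which lay below the other 3 groups, while KO_12M was within the range of the 3-month mice apart from 1 higher array. The knockout effect was 1.27 ± 0.17, adjusted p = 0.000131, at 12 months, against 0.18 ± 0.17, adjusted p = 0.475, at 3 months. Its difference between the ages, the interaction, was 1.09 ± 0.23, adjusted p = 0.0433.

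Cyp2c39, which hydroxylates retinoic acid, read 289.8, 264 and 367 in Het_3M and 303, 322 and 282 in KO_3M. The older mice gave 283, 215 and 312 in Het_12M and 409, 399 and 471 in KO_12M, without overlap (0.64 ± 0.16, adjusted p = 0.0144). Cyp2c55, a PXR and CAR target, is known best from the colon. It read 65.7, 45.4 and 54.2 in Het_3M and 74.6, 62.9 and 105 in KO_3M, and 43.1, 51.1 and 46.3 in Het_12M and 107, 67.7 and 153 in KO_12M. The 12-month difference was 0.94 ± 0.25, adjusted p = 0.0226. Both calls were lost without KO_12M 3, at 0.57 (adjusted p = 0.0641) for Cyp2c39 and 0.69 (adjusted p = 0.11) for Cyp2c55. The call of Cyp2c39 was also lost without Het_12M 2, and that of Cyp2c55 without Het_12M 1, Het_12M 3 or KO_12M 1.

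**Figure D3:**
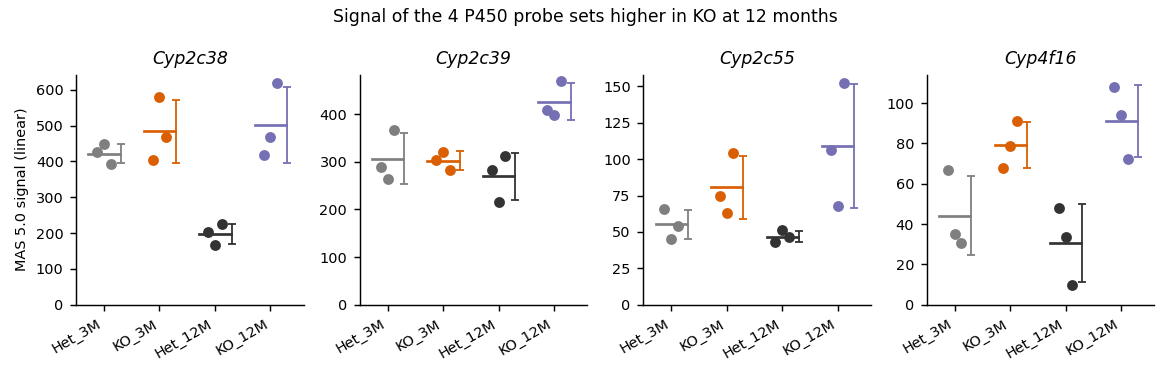
MAS 5.0 signal on a linear axis from 0 in each of the 12 livers (points) for the 4 P450 probe sets higher in KO at 12 months, with the group mean (line) and SD (bar), n = 3. For Cyp2c38 the Het_12M livers, at 167 to 224, lie below the other 3 groups.

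Along chromosome 19 the RefSeq order of the members is Cyp2c55, Cyp2c65, Cyp2c29, Cyp2c39, Cyp2c38, Cyp2c68, Cyp2c37, Cyp2c54, Cyp2c50, Cyp2c70 and Cyp2c23. The adjacent Cyp2c37, Cyp2c54 and Cyp2c50 were all lower at 3 months. The adjacent Cyp2c39 and Cyp2c38 were higher at 12 months, next to Cyp2c29, which was lower. Neither Cyp2c68 nor Cyp2c70, on either side of Cyp2c37, Cyp2c54 and Cyp2c50, was called at either age. Cyp2c70, which makes the muricholic acids of mouse bile, read 4526, 4218 and 3581 in Het_3M and 4455, 4744 and 3986 in KO_3M, and 3974, 5049 and 4667 in Het_12M and 4502, 4411 and 3226 in KO_12M. Its groups overlapped at both ages (0.10 and -0.18). Cyp2c23, an epoxygenase, was not called in a knockout comparison (0.21 and -0.35), and Cyp2c65 was too dim to test. The files hold no probe sequences, so which of these closely related transcripts each probe set reads was not tested.

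**Figure D4:**
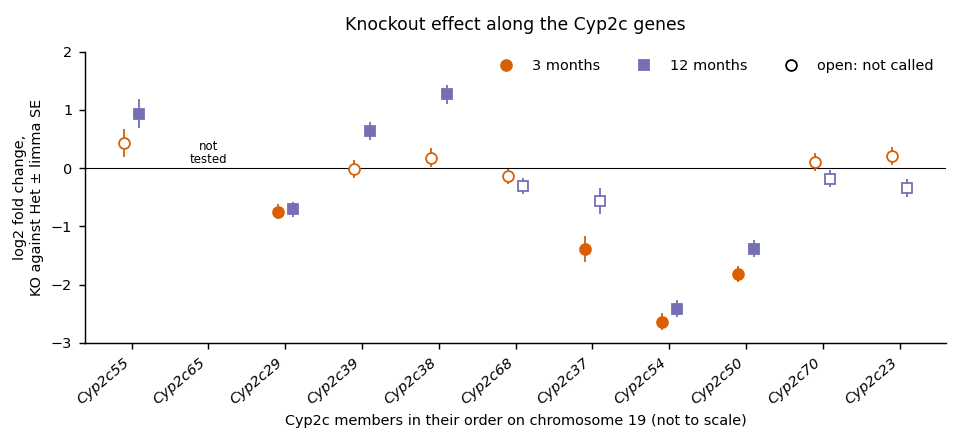
Log2 fold change of knockout against heterozygous livers with limma standard error for the Cyp2c members in their order on chromosome 19, at 3 months (circles) and 12 months (squares). Filled symbols are called; Cyp2c37, Cyp2c54 and Cyp2c50 stand next to each other and are the lowest at 3 months, and Cyp2c39 and Cyp2c38 are above 0 at 12 months.

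Cyp1a2, an AH receptor target that oxidises caffeine and aromatic amines, was lower at both ages. It read 5319, 6439 and 4907 in Het_3M and 2538, 1960.1 and 3178 in KO_3M, and 3911, 4481 and 4916 in Het_12M and 1831, 1716 and 1454 in KO_12M. The knockout signal was 46.1% and 37.6% of the heterozygous mean, or -1.13 ± 0.17, adjusted p = 0.00027, and -1.40 ± 0.17, adjusted p = 5.63e-05. The related Cyp1a1, the inducible AH receptor target, stayed dim on every array, from 42.7 to 128.8, and was not called (-0.06 and -0.35). Of the 3 probe sets of Cyp1b1, a P450 mostly of other tissues, 1 was tested and not called (-0.81 and -0.54). It read 52.3, 73.4 and 28 in Het_3M and 13.3, 7.5 and 56.7 in KO_3M, and 75.3, 41.6 and 62.6 in Het_12M and 32.7, 38.9 and 33.8 in KO_12M. Another Cyp1b1 probe set, too dim for the filter, read 15.9, 4.4 and 5.5 in Het_3M and 30.8, 37 and 41.3 in KO_3M, so the 2 disagree in direction.

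Cyp2e1, which oxidises ethanol and makes reactive oxygen, was lower at both ages. Its signals were 7865, 8161 and 8081 in Het_3M and 6306, 5252 and 6198 in KO_3M. In the older mice they were 6874, 7611 and 7278 in Het_12M and 5227, 3818 and 3523 in KO_12M. All knockout livers were below all heterozygous livers of their age, with a log2 fold change of -0.44 ± 0.14, adjusted p = 0.0369, and -0.81 ± 0.14, adjusted p = 0.00166. The 3-month call was lost without the arrays of the conflicting label (-0.51, adjusted p = 0.0969) and with median scaling (-0.26, adjusted p = 0.342). It was also lost on leaving out Het_12M 3 or any 1 of the 6 arrays of 3-month mice.

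Cyp1a2, Cyp2e1, Cyp2c29, Cyp2c37, Cyp2c50, Cyp2c54 and Cyp3a11 were listed as members made mostly around the central vein. Of these 7, 6 were lower at 3 months and 5 at 12 months (85.7% and 71.4%, against 11.6% and 3.6% of all tested probe sets), with a median of -1.13 and -0.81. The exceptions were Cyp3a11 at both ages and Cyp2c37 at 12 months. Cyp2a5 was listed too but lies outside the rule, and it is not in these counts. Its probe set, shared with Cyp2a4, went the other way at 3 months (1.19 ± 0.26, adjusted p = 0.00434) and was not called at 12 months (-0.59). Cyp2f2, which oxidises naphthalene and is made around the portal vein, read 7023, 6508 and 6120.3 in Het_3M and 7605, 6387 and 6147 in KO_3M, and 6449, 6530.0 and 6729 in Het_12M and 6795, 5543 and 3969 in KO_12M. It was not called (0.03 and -0.31). The 14 hepatocyte marker probe sets had a median of -0.06 at 3 months and -0.30 at 12 months.

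**Figure D5:**
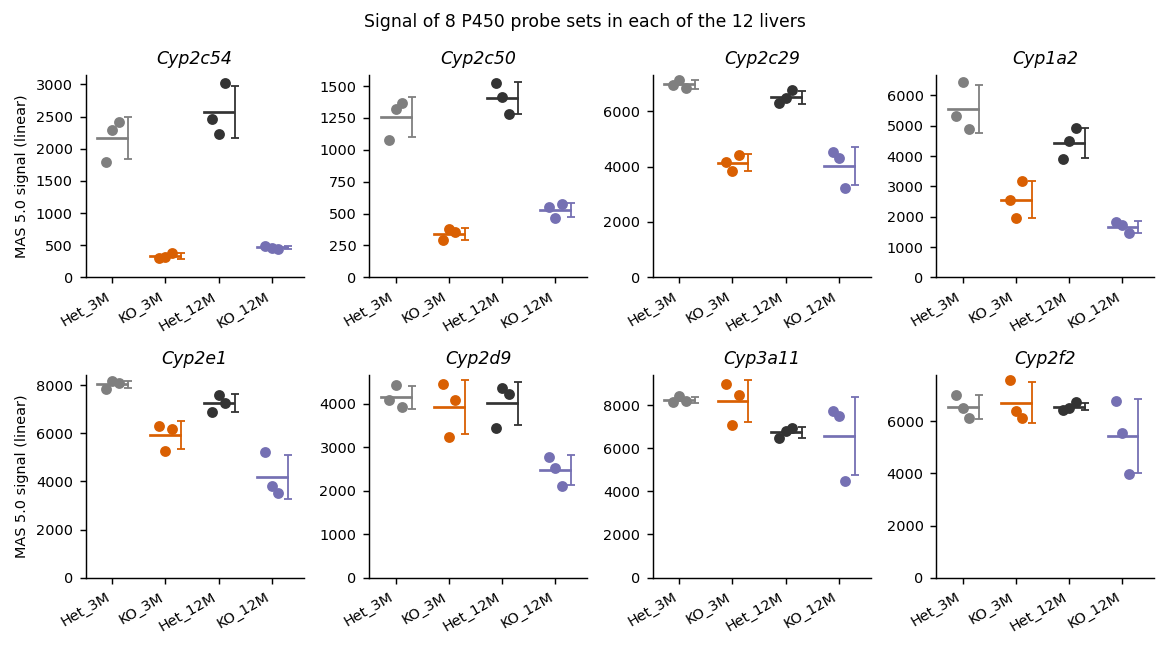
MAS 5.0 signal on a linear axis from 0 in each of the 12 livers (points) for 8 P450 probe sets, with the group mean (line) and SD (bar), n = 3. Knockout and heterozygous livers separate at both ages for Cyp2c54, Cyp2c50, Cyp2c29, Cyp1a2 and Cyp2e1, only at 12 months for Cyp2d9, and overlap for Cyp3a11 and Cyp2f2, where KO_12M 3 is the lowest array.

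Cyp2b10, the classic CAR target, was lower at 3 months on 2 of its 3 probe sets. The first read 339.6, 216 and 286 in Het_3M and 113, 184 and 126 in KO_3M, a difference of -0.92 ± 0.18, adjusted p = 0.00249. At 12 months it read 340.2, 318 and 336 in Het_12M and 253, 193 and 241 in KO_12M and was not called (-0.51 ± 0.18, adjusted p = 0.0947). The second read 170.0, 109 and 181 in Het_3M and 66.1, 75.3 and 65.1 in KO_3M, a difference of -0.97 ± 0.19, adjusted p = 0.00231. Its 12-month signals, 105, 139 and 156 in Het_12M and 107, 129 and 106 in KO_12M, overlapped. The third overlapped at both ages (-0.48 and -0.18). Cyp2b9, a P450 higher in female mice, read 57.8, 26.5 and 36.4 in Het_3M and 29.5, 23.7 and 44.9 in KO_3M and was too dim to test, as was Cyp2b13. Cyp2b19 was tested and not called.

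Of the 13 probe sets of 11 genes listed as CAR and PXR targets, 11 were tested, 7 were lower at 3 months (63.6%, against 11.6% of all tested probe sets), and 4 were lower and 1 higher at 12 months (36.4% and 9.09%, against 3.6% and 5.86%). Their median was -0.75 and -0.51. Of 10 probe sets of 8 genes listed as female-biased in mouse liver, 7 were tested: 4 were lower at 3 months (57.1%, against 11.6%) and 2, Cyp2c38 and Cyp2c39, higher at 12 months (28.6%, against 5.86%). These counts leave out listed genes outside the rule. Of those, Cyp2a5 (CAR and PXR) and Cyp2a4 (female-biased) share a set that was higher at 3 months (1.19 ± 0.26, adjusted p = 0.00434). The set of the female-biased Cyp3a41a was not called at either age. The lists share members, such as Cyp2b10, and the CAR and PXR list shares others with the central vein list, such as Cyp2c54. They cover what a member is known for, not what acted here.

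The Cyp2d subfamily, relatives of the human drug-metabolising CYP2D6, had more calls at 12 than at 3 months. Of its 9 probe sets of 7 genes, 8 were tested, 2 were lower at 3 months and 5 at 12 months, and none was higher. Of all tested probe sets, 11.6% were lower at 3 months and 3.6% at 12 months, with 9.55% and 5.86% higher. Cyp2d9, a testosterone hydroxylase higher in males, read 4076, 4435 and 3919 in Het_3M and 4445, 3242 and 4075 in KO_3M, overlapping. At 12 months it read 3446, 4347 and 4215 in Het_12M and 2778, 2515 and 2099.9 in KO_12M, and all 3 knockout livers were below (-0.70 ± 0.15, adjusted p = 0.00618, against -0.09 at 3 months). The difference between the ages was -0.61 and was not called (adjusted p = 0.182).

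Cyp2d13 was lower at both ages on 1 probe set. That set read 936, 793 and 978 in Het_3M and 537, 502 and 506 in KO_3M, and 823, 835 and 963 in Het_12M and 414, 421 and 279 in KO_12M. Its log2 fold change was -0.79 ± 0.15, adjusted p = 0.00199, and -1.22 ± 0.15, adjusted p = 7.60e-05. The second read 522, 441 and 572 in Het_3M and 386, 409 and 386 in KO_3M, and 612, 548 and 552 in Het_12M and 387, 337 and 316 in KO_12M. It pointed the same way, at -0.36 ± 0.13, adjusted p = 0.058, and -0.70 ± 0.13, adjusted p = 0.00222. The 3-month call of the first moved to -0.20 (adjusted p = 0.666) with the session block.

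Cyp2d22 differed at 12 months on 1 of its 2 probe sets. It read 1290.1, 1424 and 1438 in Het_3M and 1468, 1406 and 1276 in KO_3M, and 1419, 1471 and 1567 in Het_12M and 1148, 1016 and 924 in KO_12M (-0.53 ± 0.12, adjusted p = 0.00913). Its other probe set was not called (-0.29), and at 3 months the 2 were near 0 with opposite signs. Cyp2d10 read 4462, 5126 and 4272 in Het_3M and 4039, 2990.2 and 3591 in KO_3M, and 2924, 4053 and 3711 in Het_12M and 2599, 2789 and 2017 in KO_12M. It lay at the threshold at 12 months (-0.53 ± 0.16, adjusted p = 0.0494) and lost its call without KO_12M 3, at -0.39 (adjusted p = 0.164). Of the other arrays, only Het_12M 1, KO_12M 2, KO_3M 1 and KO_3M 2 could each be left out with the call kept. Cyp2d26 was called only at 3 months, though its fold change was like that at 12 months (-0.38 ± 0.12, adjusted p = 0.0348, and -0.38 ± 0.12, adjusted p = 0.0585), and that call was lost without any 1 of the 3-month arrays except KO_3M 1. Cyp2d12 was not called, and Cyp2d34 was too dim to test.

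Cyp2j5, an arachidonic acid epoxygenase of kidney and liver, was lower at 3 months on both probe sets, by different amounts. The first read 1776, 1626 and 1826 in Het_3M and 1179.8, 1424 and 1425 in KO_3M, and 1712, 1796 and 1888 in Het_12M and 1421, 1445 and 1298 in KO_12M (-0.38 ± 0.12, adjusted p = 0.0317, and -0.37 ± 0.12, adjusted p = 0.0586). The other read 265, 386 and 388 in Het_3M and 85.5, 166 and 212 in KO_3M, and 267, 366 and 312 in Het_12M and 183, 246 and 200.2 in KO_12M (-1.15 ± 0.24, adjusted p = 0.00355, and -0.55 ± 0.24, adjusted p = 0.18). Without overlap at either age, neither passed the test at 12 months. The 3-month call of the first was lost without Het_3M 1, Het_3M 3 or KO_3M 1. Of the other Cyp2j genes, Cyp2j6 was not called, and Cyp2j9 and Cyp2j13 were too dim.

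Cyp3a11, the main drug-metabolising Cyp3a enzyme of mouse liver and a PXR target, was not called at either age. It read 8134, 8409 and 8209 in Het_3M and 8984, 7097 and 8482 in KO_3M. In the older mice it read 6466, 6793 and 6954 in Het_12M and 7721, 7471 and 4468 in KO_12M, where KO_12M 3 was the lowest array of all. The log2 fold changes were -0.02 ± 0.17, adjusted p = 0.954, and -0.08 ± 0.17, adjusted p = 0.842. Cyp3a25, of the same gene cluster, was lower at both ages (-0.57 ± 0.16, adjusted p = 0.0187, and -0.55 ± 0.16, adjusted p = 0.0366). The 12-month call was lost without KO_12M 3 (-0.43, adjusted p = 0.129), and also without KO_12M 2, Het_12M 1, Het_12M 3 or Het_3M 3. The 3-month call was lost without Het_3M 2, Het_3M 3 or KO_3M 1, without the arrays of the conflicting label (-0.50, adjusted p = 0.12) and with median scaling (-0.38, adjusted p = 0.15).

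Cyp3a44, known as higher in females, read 66.1, 59.4 and 105 in Het_3M and 23.8, 46.7 and 42.7 in KO_3M, without overlap (-0.79 ± 0.25, adjusted p = 0.0364). That call was lost under 12 of 27 alternatives, among them leaving out Het_3M 1, Het_3M 3, KO_3M 1 or KO_3M 3. At 12 months it read 55.7, 60.2 and 71.1 in Het_12M and 68.6, 46.8 and 79.8 in KO_12M and the groups overlapped. Cyp3a13, found in gut and liver, read 193, 169 and 187 in Het_3M and 198, 221 and 256 in KO_3M, and 196, 179 and 171 in Het_12M and 176, 217 and 211 in KO_12M. It was not called (0.27 and 0.13), but with each array scaled to its median it was called higher at 3 months, at 0.45 (adjusted p = 0.0267). Cyp3a16 was near the floor of the array.

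Family 4 enzymes oxidise the end of fatty acids and leukotrienes. Cyp4a14, a PPARalpha target, read 66.7, 45 and 203 in Het_3M and 17.8, 31.6 and 25 in KO_3M, with Het_3M 3 far above the other 2. At 12 months it read 74.1, 25.5 and 41.6 in Het_12M and 22.2, 19.1 and 54.8 in KO_12M, overlapping. The 3-month difference was -1.35 ± 0.43, adjusted p = 0.0331, and the call was lost without Het_3M 3 and without any 1 of the KO_3M arrays. Cyp4b1, a P450 best known from the lung, read 101, 130.4 and 107 in Het_3M and 45.8, 81.1 and 73.5 in KO_3M, and 124, 101 and 99.5 in Het_12M and 107, 116 and 84.9 in KO_12M. Only its 3-month difference was called (-0.66 ± 0.19, adjusted p = 0.0243), and the call was lost without Het_3M 2 or KO_3M 1.

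On every probe set that reads Cyp4f16, the knockout livers lay above the heterozygous livers of their age. The tested set read 66.6, 35.1 and 30.5 in Het_3M and 67.9, 78.8 and 91.1 in KO_3M, and 48.1, 33.5 and 9.7 in Het_12M and 108, 93.9 and 72.3 in KO_12M. The log2 fold change was 0.71 ± 0.31, adjusted p = 0.117, and 1.29 ± 0.31, adjusted p = 0.0138. The 12-month call was lost without Het_12M 3, without KO_12M 1 and with the GAPDH covariate (1.17, adjusted p = 0.0506). The second set, too dim for the filter, read 3.7, 4.3 and 5.1 in Het_3M and 32.5, 31.9 and 37.9 in KO_3M, and 4.8, 4.4 and 6.9 in Het_12M and 11.7, 22.5 and 13.4 in KO_12M. A set outside the rule, shared by Cyp4f37 and Cyp4f16, read 4.8, 3.6 and 11.7 in Het_3M and 65.9, 64 and 64.7 in KO_3M, and 6.0, 5.8 and 12 in Het_12M and 71.9, 65.9 and 67 in KO_12M (1.85 ± 0.30, adjusted p = 0.00055, and 1.83 ± 0.30, adjusted p = 0.000923). On these 2 sets no heterozygous liver reached any knockout liver. Which gene the shared set reads was not tested.

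Cyp4f14, a leukotriene B4 hydroxylase, read 1052, 837 and 1055 in Het_3M and 1103, 991 and 691 in KO_3M, and 1314, 1229 and 1171 in Het_12M and 981, 919.8 and 806 in KO_12M, and was not called (-0.10 and -0.45). Its relatives Cyp4f13 and Cyp4f15 were not called either, and Cyp4f18 was too dim. Cyp4v3, a fatty acid hydroxylase, read 2748, 3601 and 2881 in Het_3M and 3760.0, 2566 and 2661 in KO_3M, and 2559, 2989 and 2653 in Het_12M and 2283, 2197 and 1496 in KO_12M on 1 of its sets. The 2 Cyp4v3 sets had opposite signs at 3 months (0.24 and -0.05) and the same sign at 12 months (-0.52 and -0.47), none of them called. Cyp4a31 was near the floor. Among single-gene subfamilies, Cyp2a12, which hydroxylates bile acids, Cyp2g1, a P450 of the nose, and Cyp2s1 were not called in either knockout comparison.

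Other P450 probe sets lie outside the rule. The set shared by Cyp2a5 and Cyp2a4, coumarin and steroid hydroxylases, read 1287, 1026 and 1645 in Het_3M and 1954, 2729 and 4974 in KO_3M, and 2672, 2433 and 2075 in Het_12M and 1458, 1379 and 1938 in KO_12M. It was higher in knockout livers at 3 months (1.19 ± 0.26, adjusted p = 0.00434) and not called at 12 months (-0.59 ± 0.26, adjusted p = 0.178). The difference between the ages was -1.79 ± 0.36, adjusted p = 0.0357. The set shared by Cyp4a31 and Cyp4a10, PPARalpha targets, read 161, 138 and 597 in Het_3M and 67.3, 117 and 67.1 in KO_3M, and was lower at 3 months (-1.39 ± 0.41, adjusted p = 0.0231), with 1 high array in Het_3M as for Cyp4a14. Cyp4a12a, male-biased, and the set shared by Cyp3a41a and Cyp3a41b were not called in a knockout comparison.

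Fewer members were called between the ages in heterozygous than in knockout mice. Between Het_3M and Het_12M only Cyp2c38 was called, lower (-1.04 ± 0.17, adjusted p = 0.00865), which is 1 of 45 members (2.22%), against 0.432% of all tested probe sets lower and 0.717% higher. Between KO_3M and KO_12M 6 members were lower and 2 higher, or 13.3% and 4.44%, against 3.15% and 5.8% of all tested probe sets. The lower ones were Cyp2c23 (-0.84 ± 0.15, adjusted p = 0.0062), Cyp2g1 (-0.82), Cyp2d9 (-0.66), Cyp1a2 (-0.59), Cyp2e1 (-0.51) and Cyp2d22 (-0.42). The higher ones were Cyp2b10 (0.66 ± 0.18, adjusted p = 0.0365) and Cyp2c50 (0.61 ± 0.14, adjusted p = 0.0171).

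Cyp2c23 read 4002, 3553 and 3689 in Het_3M and 4694, 3731 and 4661 in KO_3M, and 2882, 3359 and 2974 in Het_12M and 2739, 2714 and 1879 in KO_12M, so that KO_12M was the lowest group. Cyp2g1 read 72.7, 64.3 and 75 in Het_3M and 66.9, 60.4 and 104 in KO_3M, and 85.9, 66.6 and 60.6 in Het_12M and 44.3, 39 and 25.3 in KO_12M, again lowest in KO_12M. Without KO_12M 3 only Cyp2c23 and Cyp2d9 stayed called, without KO_3M 1 only 1 call remained in all, and without KO_3M 3 there were 5. Scaling arrays to their median moved the median of all tested probe sets from 0.10 to -0.20 in this comparison, and 16 members were then lower and none higher. The comparison of KO_3M with KO_12M shares its arrays with both knockout comparisons.

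The interaction asks whether a knockout effect differed between the ages. Of the 45 members, Cyp2c38 alone was called, 2.22% higher and none lower, against 0.393% of all tested probe sets higher and 0.324% lower. That call was lost on leaving out any of 9 of the 12 arrays. At an unadjusted p under 0.05, 13 members passed (28.9%, against 15.3% of all tested probe sets). The calls at 1 age only, such as those of the Cyp2d genes and of Cyp2b10, are therefore not shown to differ between the ages.

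Genes that control P450 transcription or serve the enzymes were read from lists of 21 and 17 genes, of which 18 and 15 were tested. CAR itself (Nr1i3) was lower at both ages: it read 327, 267 and 388 in Het_3M and 201, 249 and 193 in KO_3M, and 389, 328 and 419 in Het_12M and 246, 215 and 185 in KO_12M. Its log2 fold change was -0.57 ± 0.16, adjusted p = 0.0206, and -0.77 ± 0.16, adjusted p = 0.0059. PXR (Nr1i2), the AH receptor (Ahr) and the shared partner Rxra were not called on any tested set. Hnf4a, which sustains hepatocyte genes, was lower on 1 of its 4 sets (-0.35 ± 0.12, adjusted p = 0.043, and -0.39 ± 0.12, adjusted p = 0.0473). Its other sets were not called. They had the same sign at 3 months (-0.23, -0.48 and -0.18) and the opposite sign at 12 months (0.10, 0.22 and 0.19). Bcl6, a repressor tied to sex differences of liver genes, was lower on 1 of 2 sets (-1.29 ± 0.28, adjusted p = 0.00487, and -1.11 ± 0.28, adjusted p = 0.0195). Nfe2l2, the oxidative stress factor NRF2, was higher (0.76 ± 0.17, adjusted p = 0.00437, and 0.58 ± 0.17, adjusted p = 0.0359).

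Called at 12 months and not at 3 months were PPARalpha (Ppara, -0.84 ± 0.18, adjusted p = 0.00743) and the bile acid receptor FXR (Nr1h4, -0.66 ± 0.13, adjusted p = 0.00459), both lower. So were the circadian factors Dbp (-2.26 ± 0.53, adjusted p = 0.0122) and Tef (-0.89 ± 0.27, adjusted p = 0.0449). The Dbp signals were 281, 305 and 259 in Het_3M and 823, 731 and 795 in KO_3M, and 655, 803 and 743 in Het_12M and 189, 23.9 and 446 in KO_12M, a wide spread in KO_12M. The hour at which the livers were taken is not given in the labels, and its part was not tested.

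Among electron donors and haem enzymes, Hmox2 (-0.74 ± 0.15, adjusted p = 0.00273), 1 of the 2 sets of Cpox (-0.78 ± 0.22, adjusted p = 0.0176) and 1 of the 3 sets of Cyb5b, a cytochrome b5 (-0.52 ± 0.14, adjusted p = 0.0186) were lower at 3 months. Alas1, the first enzyme of haem synthesis, read 1409, 1092 and 367 in Het_3M and 2259, 1863 and 2099.6 in KO_3M on 1 of its 2 sets, which was higher (1.30 ± 0.39, adjusted p = 0.0279). Its other set had the opposite sign and was not called (-0.12 ± 0.34, adjusted p = 0.838). Cyb5r3, the reductase of cytochrome b5, was higher on 2 of its 4 sets (0.48 and 1.16), with overlap between the groups on the second. Its other sets were not called and differed in sign (0.31 and -0.87). At 12 months only Uros was called, and higher (0.72 ± 0.15, adjusted p = 0.00541). Over both lists 6 genes were lower and 3 higher at 3 months, and 7 lower and 2 higher at 12 months. In probe sets these are 11.3% lower and 7.55% higher of the 53 tested at 3 months, near the 11.6% and 9.55% of all tested probe sets. At 12 months they are 15.1% lower and 3.77% higher, against 3.6% and 5.86%. The sets lower at 12 months were all of the receptors and factors (8 of 29, or 27.6%), with 0 of 24 among the electron donors and haem enzymes. With the session as a block 1 gene was called at each age over both lists.

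Macrophage and stellate cell markers moved with the genotype in most tested probe sets at 3 months. The summed macrophage signal was 1793 to 2016 in Het_3M and 3542 to 6141 in KO_3M, and 1943 to 2189 in Het_12M and 3448 to 4015 in KO_12M. At 3 months 10 of its 13 tested probe sets were higher and 1 lower, and at 12 months 7 were higher. The higher ones are 76.9% and 53.8%, against 9.55% and 5.86% of all tested probe sets. The lower one is 7.69%, against 11.6%. The summed stellate cell signal was 1177 to 1335, 2825 to 3280.2, 1209.8 to 1525 and 2278 to 2696 in the same order. Of its 11 tested probe sets 6 were higher at 3 months and 5 at 12 months (54.5% and 45.5%, against the same shares of all). The summed cholangiocyte signal was 62.3 to 123, 169.5 to 199, 51.7 to 89.4 and 87.1 to 398, which overlapped at 12 months, and its 1 tested probe set was higher at 3 months only. Of 6 endothelial probe sets 1 (16.7%, against 11.6% of all tested), of Lyve1, was lower at 3 months (-0.87 ± 0.20, adjusted p = 0.00547). The 1 tested T cell set, of Cd8a, was lower at 3 months (-1.31 ± 0.34, adjusted p = 0.0121). None of the 4 neutrophil sets nor the 1 B and plasma cell set was called in a knockout comparison. The part of the cell mixture in the P450 values was not tested. On its set of highest mean, no marker gene of any list was at 0 on any array. On that set 3 of 5 cholangiocyte genes and 4 of 5 T and natural killer cell genes lay below the array's median on every array. So did 1 gene each of the stellate cell, endothelial and B and plasma cell lists. The hepatocyte sum given above overlapped between genotypes at both ages, and its lowest value was that of KO_12M 3.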

How the data were processed

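The authors deposited 1 linear intensity per probe set and array, the signal that MAS 5.0 gives per the submitters' processing notes. Trimmed means (from percentile 2 to 98) were 150.05 to 150.07, so the deposited intensities had been scaled, by settings the sources do not state. Of 22690 probe sets, 64 are controls, 20393 have 1 gene symbol, 691 several and 1606 none. Probe sets with at least 3 of 12 arrays at or above their array's median were tested (12976), on log2(signal + 16), with limma 3.58.1 (R 4.3.3), an intensity trend, 4 group means and 8 residual degrees of freedom. Adjusted p values are limma's, Benjamini-Hochberg over all tested probe sets, and the offset shrinks fold changes of dim probe sets. The fit was tested on simulated data.

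The members and lists were chosen with earlier results of these data known. Signals are printed for called members with the largest changes and no overlap between groups, up to 10 each way per knockout comparison and 4 each way for age and interaction, and for a listed reference gene per subfamily. Replicates are separate mice per the series design text, and their number limits the precision. Promoters are from RefSeq (GRCm38.p6), aligned with Biopython 1.88. Python 3.11.15, pandas 2.3.3, numpy 2.4.6 and matplotlib 3.10.9 were used. Alternatives are described at the end.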

Additional observations from a re-analysis of the deposited data

Results flagged for a closer look

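A test of the difference between the ages passed for 1 P450 member and 3 of the partner and regulator genes. For Cyp2c38 the knockout effect was higher at 12 than at 3 months by 1.09 (log2). For the circadian factor Dbp, on 1 of its 2 probe sets, the difference was -3.69. For the bile acid receptor Nr1h4 the difference was -0.95. For Uros, a haem synthesis enzyme, it was 0.98. The call of Cyp2c38 was lost under 17 of 26 alternatives, and the other 3 genes were not run under them for this difference.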

How the results depend on the processing

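Alternatives were run for each count of called P450 probe sets and for each named member, and no called value changed direction under any of them. The 16 calls at 3 months became 2 with the scan session as a block, 6 with the GAPDH 3' to 5' ratio as a covariate, 8 without both arrays of the conflicting age label, 9 without the arrays of another fluidics script or error, and 6 under a 2-fold change with an unadjusted p under 0.05. Leaving out 1 array gave 10 to 16. The 15 calls at 12 months became 2 with the session block and 6 under the 2-fold rule, with 11 to 16 when 1 array was left out. The 1 call for age in heterozygous mice became 0 with the session block, the GAPDH covariate or without the fluidics arrays, 2 with only the groups compared, and 1 to 2 when an array was left out. The 8 calls for age in knockout mice became 4 after quantile normalization, 16 after median scaling, 5 with no filter, with no intensity trend or with array weights, 1 with only the groups compared, with the GAPDH covariate, without the conflicting label arrays or without the fluidics arrays, and 0 under the 2-fold rule. Leaving out 1 array gave 1 to 9. The 1 interaction call became 0 under median scaling, no filter, no intensity trend, the session block, the GAPDH covariate, and without the conflicting label or fluidics arrays, and 0 to 1 when an array was left out. The 9 partner and regulator genes at each age became 1 with the session block, with 5 to 10 at 3 months and 5 to 9 at 12 months when an array was left out.

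Nothing in the labels pairs the mice, and deviations from the group means of same-numbered mice correlated with r from -0.231 to 0.176. With the mouse number as a replicate block, the calls were 14 at 3 months and 13 at 12 months, 1 for age in heterozygous and 3 in knockout mice, and 0 for the interaction; the partner genes were 8 and 7. Median scaling moved the median of all tested probe sets at 3 months from -0.06 to 0.11 and of the interaction from 0.06 to -0.18; at 3 months 10 members were then lower and 2, Cyp2d12 and Cyp3a13, higher. With no filter 2 dim sets, of Cyp1b1 and Cyp4f16, were higher at 3 months. Of the 38 called named values, 29 lost their call with the session block, 21 with the GAPDH covariate, 17 without the fluidics arrays and 15 without the conflicting label arrays. The cause of these losses was not tested; session and genotype are partly confounded.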
